A study of Mus musculus with 2 samples.

Results

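The 38 genes described here are expressed in dividing cells, in S phase or in G2 and M phase, and were chosen by symbol. All 38 were found among the 32285 genes of the deposited gene table. They fall into 6 roles: the licensing helicase (6 genes), S-phase synthesis (6), cyclins with a CDK and an inhibitor (5), mitotic kinases, checkpoint and the APC/C (7), spindle, centromere and cytokinesis (11), and chromatin with a regulator (3). For the phase comparisons 12 genes were counted as S members and 23 as G2/M members, with Cdkn2c, Stmn1 and Mybl2 in neither.

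RNA was measured in single CD45+ cells, that is immune cells by their surface marker, sorted from B16-hAXL tumours of mice. B16 is a mouse melanoma line, and the name of this derivative is read as carrying human AXL. One group received PBS and the other 200 µg of the anti-AXL antibody 6C5, both by intraperitoneal injection. The genotype label of both is WT and the label for time is day 15. Each group has a single library, and the sources used here do not say how many mice or tumours went into it. No difference between the libraries therefore has a replicate check, no test was made, and every interval below is a 95% interval that covers counting error only.

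A cell that commits to division first loads the MCM helicase on its replication origins, then makes nucleotides and copies its DNA in S phase, and then enters mitosis under the cyclin B and CDK1 kinase. Transcription of the S-phase genes is classically driven by E2F factors once the retinoblastoma protein lets go of them. The G2 and M genes are held silent in resting cells by the DREAM complex and later switched on by B-Myb and FoxM1, through a promoter element called the CHR that often stands beside CCAAT boxes. In tumours such genes mark dividing cancer cells, expanding lymphocytes, and macrophages or dendritic cells that renew themselves on site.

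The promoters of a few members are shown as examples of where these elements stand in S and in G2/M genes. Each is the 150 bases before the RefSeq start (GRCm38.p6), 5′ to 3′ on the gene's strand, with every match to a CHR, a CCAAT box or an E2F motif in capitals. The search took TTTGAA or its variant TTTAAA as a CHR, and CCAAT as the box of that name. For E2F it took TTGGCGC as well as the variants TTCCCGC and then TTCGCGC and also TTGCCGC. Both strands were read over 250 bases before the start. E2F matches on opposite strands can overlap, as they do in Mcm6 and Mcm5.
Top2a, DNA topoisomerase II alpha, chr11:99024190-99024339, minus strand: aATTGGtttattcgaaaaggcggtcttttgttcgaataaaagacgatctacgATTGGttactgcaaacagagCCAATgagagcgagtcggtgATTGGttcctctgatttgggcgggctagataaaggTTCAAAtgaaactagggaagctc
Plk1, polo-like kinase, chr7:122159285-122159434, plus strand: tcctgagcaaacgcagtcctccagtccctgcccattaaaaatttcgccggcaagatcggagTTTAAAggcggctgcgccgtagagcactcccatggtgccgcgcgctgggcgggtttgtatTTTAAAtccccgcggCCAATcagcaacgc
Cdk1, the mitotic kinase, chr10:69352913-69353062, minus strand: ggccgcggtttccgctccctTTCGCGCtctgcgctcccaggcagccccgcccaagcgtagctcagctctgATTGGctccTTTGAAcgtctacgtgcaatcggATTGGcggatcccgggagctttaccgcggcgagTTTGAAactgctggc
Mcm5, licensing helicase subunit, chr8:75109359-75109508, plus strand: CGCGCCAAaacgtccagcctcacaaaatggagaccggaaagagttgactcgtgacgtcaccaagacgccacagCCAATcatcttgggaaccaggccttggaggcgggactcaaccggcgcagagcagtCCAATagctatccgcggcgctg
Mcm6, licensing helicase subunit, chr1:128359706-128359855, minus strand: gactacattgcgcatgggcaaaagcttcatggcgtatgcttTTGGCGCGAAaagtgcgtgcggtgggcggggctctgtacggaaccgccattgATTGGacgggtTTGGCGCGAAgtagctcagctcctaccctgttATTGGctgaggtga

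In the printed stretch of Top2a a CHR begins 23 bases before the start, with CCAAT boxes upstream at 58, 78, 98 and 149 bases. Plk1 has CHR matches at 29 and 89 bases and a CCAAT box at 14. Cdk1 combines both kinds of element, with CHR matches at 15 and 71 bases, CCAAT boxes at 48 and 80, and an E2F match at 130. Mcm6 has E2F matches at 43, 46, 106 and 109 bases, CCAAT boxes at 14 and 57, and no CHR in the window. Entries were found for 32 of the 38 genes, with 34 promoters. A CHR stood in 14 of 19 G2/M promoters (73.7%), in 3 of 12 S promoters (25.0%) and in 25.2% of the 32851 promoters of the table. A CHR together with a CCAAT box stood in 68.4% of the G2/M promoters, 16.7% of the S promoters and 8.78% of all. For E2F motifs the shares were 21.1% of the G2/M promoters, 50.0% of the S promoters and 7.89% of all. CCAAT boxes did not separate the phases, at 84.2% of G2/M and 83.3% of S promoters against 33.8% of all. A match is a description of the letters and does not show that a factor binds there.

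Marker genes gave a name to 4197 PBS and 4840 6C5 cells. Their median depth was 9391 UMIs (unique molecules counted) per cell in PBS and 7399 in 6C5. Names are rebuilt from markers, so each class is called "like" its type. The classes were built without the 38 genes, other cell cycle genes, histone genes and genes that vary with them. Another 8032 PBS and 6927 6C5 barcodes were left unnamed or resembled free RNA, the RNA outside cells, and 197 and 307 stood in mixed subclusters. The libraries shared 221 of the kept barcodes, of which 36 were named in both. Although the sort was for CD45+ cells, 183 PBS and 408 6C5 barcodes were melanoma-like.

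A cell was called cycling when at least 3 of the 38 genes had a UMI after the cell was thinned to 1000 UMIs, and cells under 1000 UMIs were left out. By this rule 573 of 3967 immune cells (14.4%) were cycling in PBS and 246 of 4345 (5.66%) in 6C5. The call is a range and not a cell type: among the monocytes and macrophages of PBS, 151 cells stood at 2 genes and 99 at 3, beside 353 cells called. Neutrophils, which do not divide after they mature, gave the background. The rule called 3 of 518 (0.579%) of them in PBS and 2 of 1021 (0.196%) in 6C5, at median depths of 2598 and 2561 UMIs. Free RNA held the 38 genes at 2287 per 1000000 UMIs in PBS and 2055 in 6C5.

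**Figure D1:**
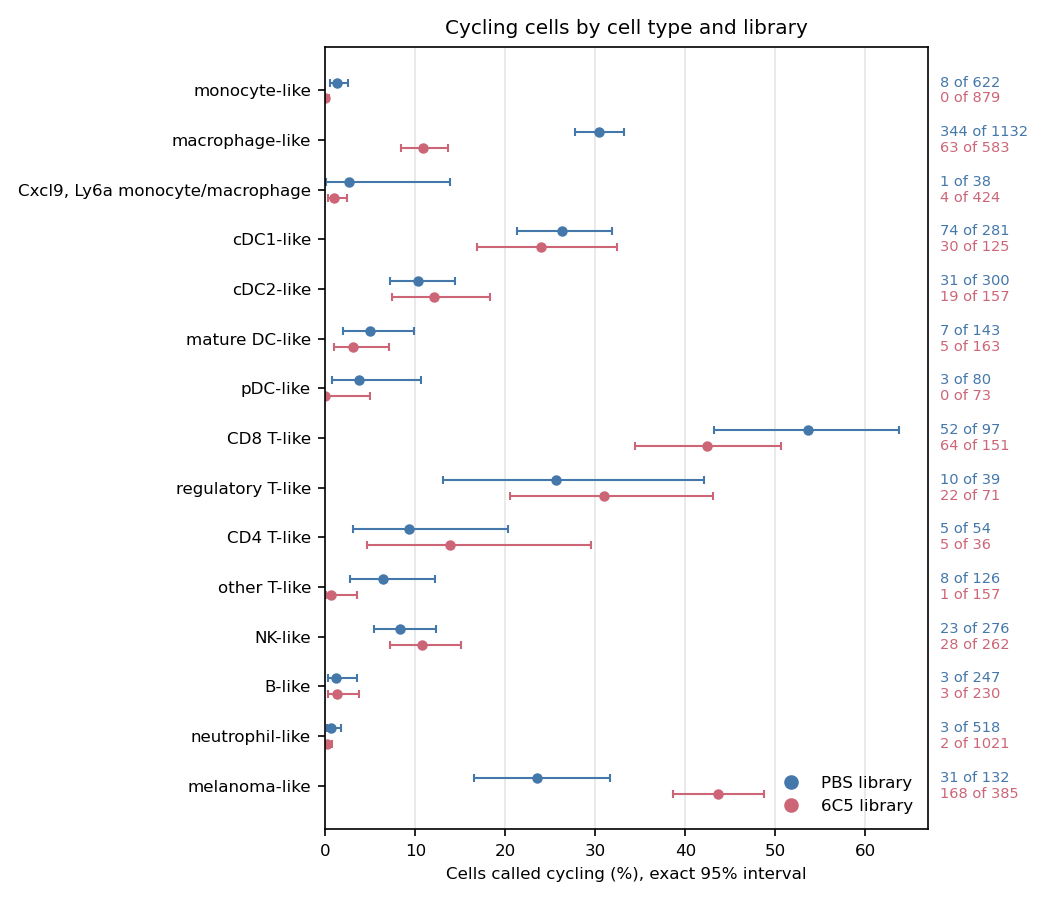
Percentage of cells called cycling (x axis) in each marker-defined cell type (y axis), PBS in blue and 6C5 in red, with exact 95% intervals and cell numbers at the right. Macrophage-like cells were 30.4% cycling in PBS and 10.8% in 6C5, and melanoma-like cells 23.5% and 43.6%.

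Monocytes and macrophages held the largest number of cycling cells in PBS. The cycling share was 353 of 1792 cells (19.7%, 17.9 to 21.6) in PBS and 67 of 1886 (3.55%, 2.76 to 4.49) in 6C5, a ratio of 0.180 (0.140 to 0.232). The summed level of the 38 genes was 2275 CPM (UMIs per 1000000 UMIs of the class) in PBS and 654 CPM in 6C5. All 38 genes had at least 30 UMIs over both libraries, the minimum for a comparison. All were lower in 6C5, and 37 of 38 were at least 2-fold lower, against 13.1% of the 12234 genes compared in this class. The members' median log2 ratio was -1.91, and that of all genes compared was -0.34. With TMM scaling, which sets the typical gene near 0, these medians were -1.60 and -0.03. In the macrophages alone 344 of 1132 (30.4%) and 63 of 583 (10.8%) were cycling, a ratio of 0.356 (0.277 to 0.456). With cell cycle genes kept in the clustering, 116 PBS and 18 6C5 cells of that name were cycling, a ratio of 0.262 (0.162 to 0.426). Without thinning, the cycling shares were 63.7% and 29.4%, and the class had median depths of 12795 and 10371 UMIs.

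All 6 subunits of the licensing helicase were at least 2-fold lower in 6C5 in these cells. Their log2 ratios ran from -1.36 for Mcm4 to -1.77 for Mcm5. Mcm2, for example, stood at 34.7 CPM in PBS and 12.6 CPM in 6C5. Loading of this ring on origins is what licenses a cell to replicate.

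Among the S-phase synthesis genes Tk1 had the lowest ratio of all 38. Tk1, the thymidine kinase of the salvage pathway, was at 122 CPM in PBS and 21.1 CPM in 6C5, a ratio of 0.173 (0.156 to 0.190). Rrm2, the regulated subunit of ribonucleotide reductase, had a ratio of 0.214 (0.183 to 0.248), and its partner Rrm1 went from 59.9 to 18.8 CPM. Pclaf, the PCNA-associated factor, was at 101 and 22.1 CPM, and Tyms, thymidylate synthase, at 41.8 and 14.1 CPM. Pcna, the sliding clamp that also serves DNA repair, was the 1 gene within 2-fold. It was at 124 CPM in PBS and 87.6 CPM in 6C5, a ratio of 0.708 (0.669 to 0.750).

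The cyclins and their kinase were lower together. Cdk1 was at 61.6 CPM in PBS and 16.2 CPM in 6C5. Ccna2 (cyclin A2) went from 42.8 to 10.5 CPM and Ccnb1 (cyclin B1) from 29.7 to 8.3 CPM. Ccnb2, cyclin B2, had the second lowest ratio of the 38, 0.189 (0.167 to 0.213). Cdkn2c, which encodes the CDK4 and CDK6 inhibitor p18, was also lower, at 30.6 and 6.1 CPM.

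All 7 genes of the mitotic kinases, checkpoint and APC/C were at least 2-fold lower. Cdc20, the activator of the APC/C ubiquitin ligase, had a ratio of 0.203 (0.168 to 0.244), and Birc5, survivin of the chromosomal passenger complex, 0.207 (0.189 to 0.227). Ube2c, the E2 enzyme of the APC/C, was at 121 and 33.6 CPM. Aurka, the centrosomal Aurora kinase, had the smallest difference of this group, at 14.9 and 6.2 CPM. Plk1 and Aurkb were at 21.6 and 32.6 CPM in PBS and at 5.4 and 7.9 CPM in 6C5.

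The 11 spindle, centromere and cytokinesis genes had log2 ratios from -2.27 for Anln, the contractile ring protein anillin, to -1.32 for Cenpa, the centromeric histone H3 variant. Stmn1, a microtubule destabiliser, was at 344 CPM in PBS and 76.8 CPM in 6C5. Of the chromatin genes, Mki67, the Ki-67 antigen, was at 130 CPM (126 to 134) in PBS and 33.5 CPM (31.1 to 36.0) in 6C5. Before thinning, its UMIs were seen in 31.5% and 11.2% of the class's cells, against 3.23% and 3.49% of neutrophils. These shares are not matched for depth, with medians of 12795 and 10371 UMIs in the class and 2598 and 2561 in neutrophils. Top2a was at 91.1 and 21.8 CPM, and Mybl2, which encodes B-Myb, had a log2 ratio of -1.81.

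**Figure D2:**
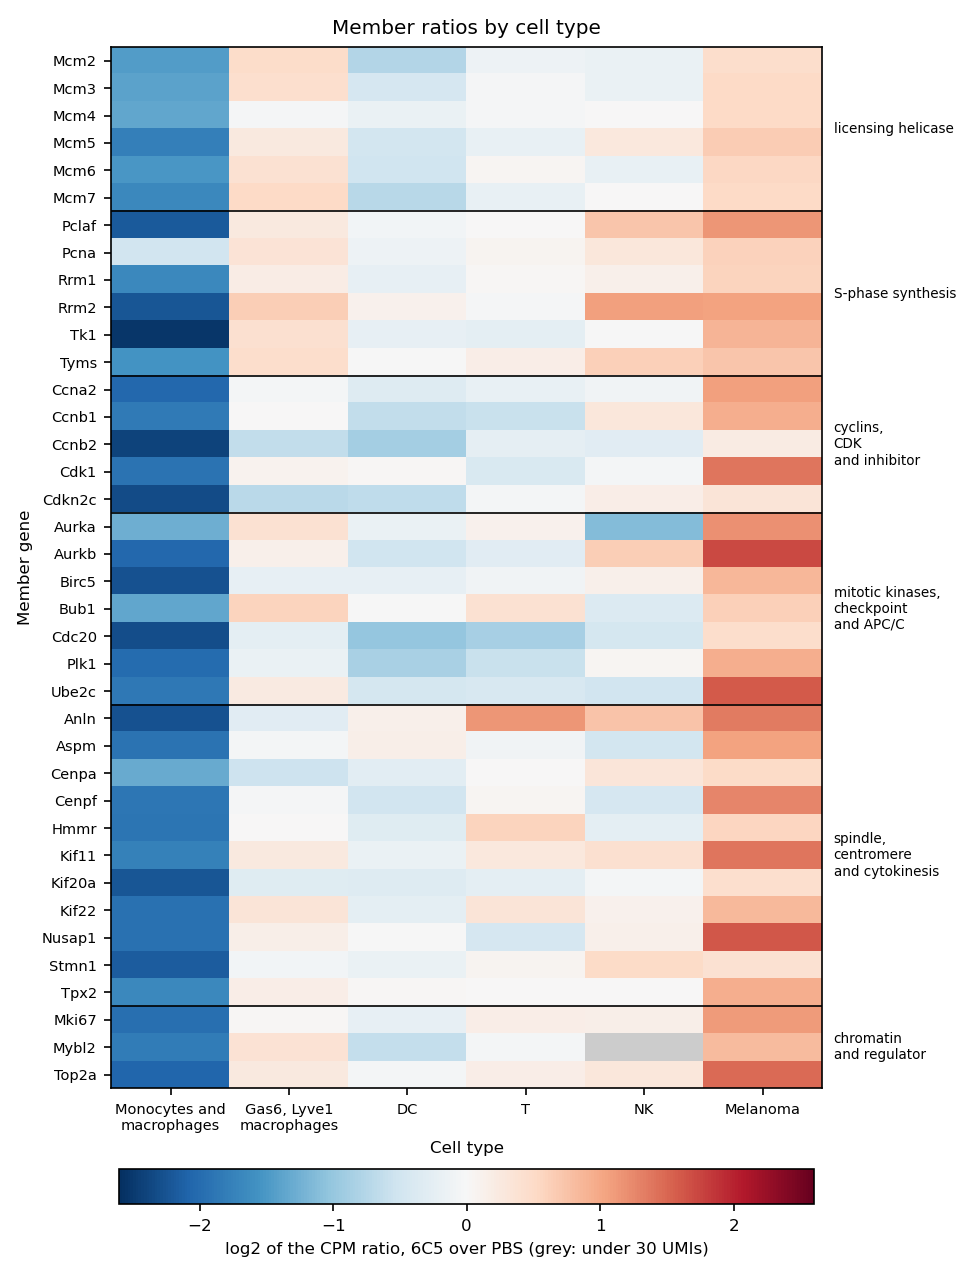
Log2 ratio of CPM in 6C5 over PBS (colour) for each of the 38 genes (rows, grouped by role) in 5 classes and the Gas6, Lyve1 macrophage subcluster (columns). The column of all monocytes and macrophages runs from -2.53 for Tk1 to -0.50 for Pcna, the subcluster's column stays between -0.70 and 0.64, and every gene of the melanoma column is above 0.

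The subclusters of this class differed widely in their cycling share. Subclusters are named here by their leading genes. Macrophages led by Negr1, Ptprm and Fcrl5 made up 715 cells in PBS and 5 in 6C5, so this subcluster is nearly 1 library's own. Of its PBS cells, 224 of 712 (31.5%, 28.1 to 35.0) were cycling, and of the 5 in 6C5, 4 were. Macrophages led by Gas6, Lyve1 and Fcna, genes of tissue-resident macrophages, held 333 cells in PBS and 118 in 6C5. In these, 117 of 331 (35.3%, 30.2 to 40.8) were cycling in PBS and 49 of 117 (41.9%, 32.8 to 51.4) in 6C5, a ratio of 1.18 (0.915 to 1.53).

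In the Gas6, Lyve1 and Fcna macrophages 0 of 38 genes were 2-fold apart in either direction, where 4.14% of the 9824 genes compared were at least 2-fold lower and 2.12% at least 2-fold higher. The lowest ratio was that of Cdkn2c, 0.615 (0.475 to 0.788), and the highest that of Rrm2, 1.56 (1.28 to 1.90). Mki67 was at 163 CPM in PBS and 167 CPM in 6C5. Tk1, the lowest gene of the whole class, was at 118 CPM in PBS and 158 CPM in 6C5 here.

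The other 5 subclusters had few cycling cells in either library, and 3 of them held more 6C5 than PBS cells. Macrophages led by Atp6v0d2, Gpnmb and Ctsk, a lysosomal programme, held 89 PBS and 461 6C5 cells, of which 3.37% and 2.17% were cycling. Cells led by Calhm6, Ly6a and Cxcl9, genes induced by interferon, held 38 and 425 cells, with 1 of 38 and 4 of 424 cycling. Monocytes led by Cxcl3, Arg1 and Spp1 held 89 and 559 cells, with 1 of 88 and 0 of 557 cycling. Taking 3 counts as the limit of a count of 0, as for every such limit here, 0 of 557 allows a share of up to 0.539%, and the exact interval drawn in the plot of subclusters reaches 0.660%. The other 2 held more PBS cells. Monocytes led by Vcan and Chil3 were 7 of 408 cycling in PBS and 0 of 236 in 6C5, which allows up to 1.27%. In the monocytes led by Ace and Hp, 0 of 126 and 0 of 86 cells were cycling. The libraries thus filled the class with different subclusters, 715 of the 1801 PBS cells standing in 1 that held 5 of the 1892 cells of 6C5.

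**Figure D3:**
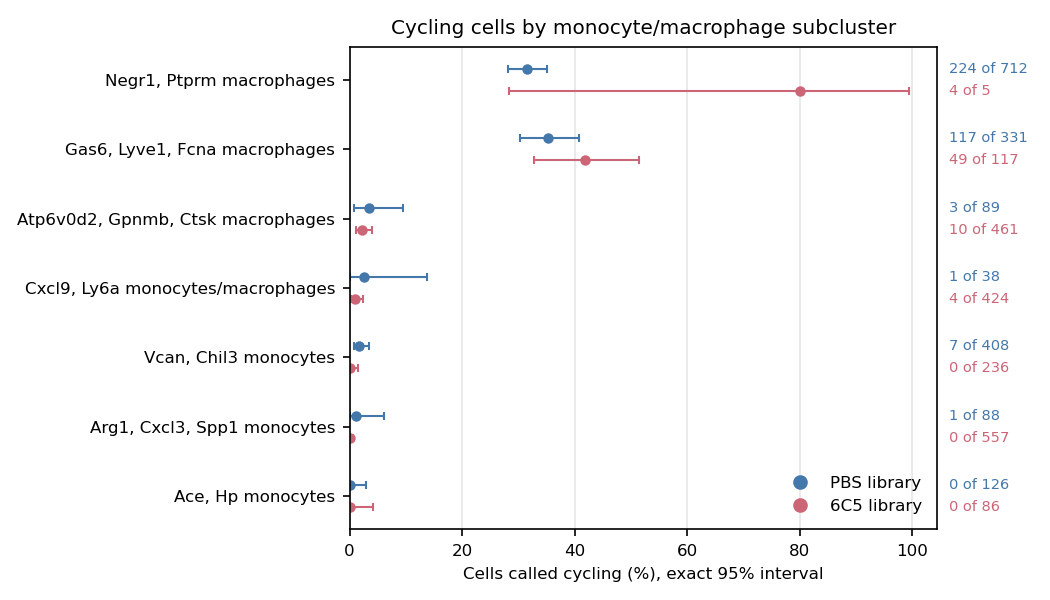
Percentage of cells called cycling (x axis, exact 95% intervals) in 7 monocyte and macrophage subclusters named by leading genes (y axis), PBS in blue and 6C5 in red, with cell numbers at the right. The top 2 rows are above 30% in both libraries, on 5 cells for the 6C5 value of the first, and the other 5 are below 4%.

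Over the 6 subclusters with at least 30 cells in each library, 11.9% of PBS and 3.35% of 6C5 cells were cycling. The Negr1 and Ptprm subcluster, which held 224 of the 353 cycling PBS cells of the class, was not among these 6. Weighted to the same makeup, that of both libraries pooled, the shares over the 6 were 7.01% and 6.89%. These shares average over subclusters that differed in opposite directions. The ratio of the summed level was 1.06 (1.04 to 1.09) in the Gas6, Lyve1 and Fcna macrophages. It was 0.655 (0.611 to 0.702) in the Atp6v0d2 and 0.657 (0.575 to 0.753) in the Cxcl9 subcluster. In monocytes it was 0.614 (0.541 to 0.699) for Arg1, 0.614 (0.555 to 0.679) for Vcan and 0.829 (0.653 to 1.05) for Ace. Without the Negr1 and Ptprm subcluster, a setting chosen after the data had been seen, the share ratio of the class was 0.280 (0.209 to 0.375), and 34 of 38 genes were at least 2-fold lower, against 8.39% of the 11682 genes compared without it. Within the Atp6v0d2, Gpnmb and Ctsk macrophages 8 of the 38 genes were at least 2-fold lower in 6C5, against 2.88% of the genes compared in that subcluster, 22 were within 2-fold and the other 8 had under 30 UMIs over both libraries and were not compared. A gene of few UMIs enters only through the library where it is high, so this count is a description of those genes alone.

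Other genes of the cell cycle were read from 3 further lists. Of 45 other mitotic genes 35 were at least 2-fold lower in the monocytes and macrophages of 6C5, and of 31 other replication genes 24, where 13.1% of all genes compared in the class were. The list of G1 entry and its brakes was split: 10 of 21 were at least 2-fold lower and 1 was higher, where 3.58% of all genes compared in the class were at least 2-fold higher. Cdkn2a, which encodes p16 and p19, was at 7.66 CPM in PBS and 0.315 CPM in 6C5. E2f7, a repressor of the E2F family, was at 6.72 and 0.766 CPM. Cdkn1a, which encodes the CDK inhibitor p21, was the gene that was higher, at 650 CPM in PBS and 1360 CPM in 6C5, a ratio of 2.09 (2.05 to 2.13). Ccnd1, cyclin D1, was at 134 CPM in both libraries.

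Dendritic cells differed less between the libraries than the monocytes and macrophages did. Their summed level was 1775 CPM in PBS and 1482 CPM in 6C5, a ratio of 0.835 (0.815 to 0.855). By subset this ratio was 0.927 (0.899 to 0.957) in cDC1, 1.10 (1.06 to 1.15) in cDC2 and 0.751 (0.691 to 0.816) in mature DC. Of all DC, 112 of 724 (15.5%, 12.9 to 18.3) were cycling in PBS and 54 of 445 (12.1%, 9.25 to 15.5) in 6C5, a ratio of 0.784 (0.580 to 1.06). None of the 38 genes was 2-fold apart, where 2.92% of the genes compared were at least 2-fold lower and 2.41% higher. Cdc20 came nearest to 2-fold, at 18.8 and 9.4 CPM. Below a ratio of 1 were 33 of 38, but all genes compared in DC also leaned that way. The members' median log2 ratio was -0.24 and that of all genes -0.09. With TMM scaling these were -0.18 and -0.03. cDC1, the subset that cross-presents antigen, had the larger share, 74 of 281 (26.3%) and 30 of 125 (24.0%). In cDC2 it was 31 of 300 (10.3%) and 19 of 157 (12.1%), a ratio of 1.17 (0.684 to 2.00) that turned to 0.505 (0.172 to 1.48) with cell cycle genes kept in the clustering. Mature Ccr7 and Fscn1 DC, which have stopped sampling antigen and migrate, had 7 of 143 (4.90%) and 5 of 163 (3.07%). On these few cells the ratio was 0.627 (0.203 to 1.93), 0.195 (0.0428 to 0.887) with G2/M members alone and 3.51 (0.397 to 31.0) with S members alone. Plasmacytoid DC were cycling in 3 of 80 (PBS) and 0 of 73 (6C5), the second of which allows up to 4.11%. Their summed level was 647 CPM in PBS and 201 CPM in 6C5, a ratio of 0.311 (0.254 to 0.380), on 435 and 129 UMIs. Free RNA could supply 9.88% and 24.7% of these UMIs.

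T cells had the highest summed level of the 38 genes among the immune classes, 3752 CPM in PBS and 3648 CPM in 6C5. They were cycling in 76 of 330 cells (23.0%) and 92 of 428 (21.5%), a ratio of 0.933 (0.714 to 1.22). One of the 38 genes, Anln, was at least 2-fold higher, with 19 UMIs in PBS and 50 in 6C5, where 1.13% of all genes compared were, and none was at least 2-fold lower, where 1.77% were. CD8 T cells, the killer lineage, had the largest share of the T subsets, with 52 of 97 cycling (53.6%, 43.2 to 63.8) in PBS and 64 of 151 (42.4%, 34.4 to 50.7) in 6C5. The ratio was 0.791 (0.608 to 1.03), and with at least 5 genes required it was 0.603 (0.397 to 0.917). This share ratio was below 1 in all 14 alternatives, and its interval included 1 in 6 of them. For the summed level the ratio in CD8 T cells was 0.844 (0.819 to 0.870). Regulatory T cells were cycling in 10 of 39 (25.6%) and 22 of 71 (31.0%), and CD4 T cells in 5 of 54 and 5 of 36. Summed levels of the subsets differed in opposite directions. Their ratio was 1.15 (1.09 to 1.22) in regulatory T cells and 0.415 (0.370 to 0.464) in T cells outside these subsets. In CD4 T cells it was 2.03 (1.72 to 2.39), on only 254 UMIs of the 38 genes in PBS and 357 in 6C5.

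T cells outside these subsets were led by naive or memory genes such as Lef1, Tcf7 and Ly6c2. Their cycling share was 8 of 126 (6.35%) for PBS and 1 of 157 (0.637%) for 6C5. All 8 of the PBS cells stood in the subcluster led by Ly6c2, which had 8 of 84 cycling in PBS and 0 of 87 in 6C5, and 0 of 87 allows up to 3.45%. Of the 38 genes, 20 had under 30 UMIs in these other T cells and were not compared, 5 were within 2-fold and 13 were at least 2-fold lower in 6C5, where 3.75% of the genes compared were. Those 13 could enter through PBS alone. Mki67 rested on 32 UMIs in PBS and 4 in 6C5. The sums come from few cells, since only 6.11% and 1.86% of them had a Mki67 UMI.

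NK cells were cycling in 23 of 276 (8.33%) and 28 of 262 (10.7%), a ratio of 1.28 (0.759 to 2.17). Of the 37 genes compared, Rrm2 was at least 2-fold higher, where 1.11% of all genes were, and Aurka at least 2-fold lower, where 1.64% were. Aurka rested on 21 and 10 UMIs. Most of the cycling NK cells were of 1 state. NK cells led by Gzmc, Serpinb9b and Xcl1, an activated form, had 15 of 50 cycling (30.0%) in PBS and 19 of 65 (29.2%) in 6C5. Cells led by Gzma, Klra4 and Klra8, a circulating form, were cycling in 2 of 141 and 0 of 77, the second of which allows up to 3.90%. Another group, led by Rab27b and Car2, was cycling in 6 of 76 and 9 of 107. Median depth moved with this, at 12564 and 12151 UMIs in the Gzmc form and 4034 and 3446 in the Gzma form, and its part was not tested. Mki67 was at 279 and 250 CPM in the Gzmc form and 33.0 CPM in the PBS cells of the Gzma form.

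B cells were mostly not cycling, in 3 of 247 (1.21%) in PBS and 3 of 230 (1.30%) in 6C5. The 58 Mki67 UMIs of B cells in PBS, against 4 in 6C5, lay in 3.52% of the cells. Mki67 was the 1 gene at least 2-fold lower among the 8 compared in B cells, where 3.28% of all genes were. In neutrophils 5 genes were compared, and Stmn1 and Cenpa were at least 2-fold lower, where 14.5% of all genes were, on 43 and 28 UMIs in PBS and 38 and 21 in 6C5. None of the 5 was at least 2-fold higher, where 7.9% of all genes were. Free RNA could supply 18.1% and 19.4% of the B cells' UMIs of the 38 genes and 76.8% and 70.1% of those of neutrophils. In the monocytes and macrophages it could supply 2.61% and 5.61%, and in T cells 1.30% and 0.943%.

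Melanoma-like cells went the other way from the macrophages. Their cycling share was 31 of 132 cells (23.5%, 16.5 to 31.6) in PBS. In 6C5 it was 168 of 385 (43.6%, 38.6 to 48.8), a ratio of 1.86 (1.34 to 2.58). The summed level was 2378 CPM in PBS and 4240 CPM in 6C5. All 38 genes were above a ratio of 1 and 14 of 38 were at least 2-fold higher, against 2.78% of the 12259 genes compared. None of the 38 was at least 2-fold lower, where 4.1% of those genes were. The members' median log2 ratio was 0.86 and that of all genes -0.09. With TMM scaling these were 1.01 and 0.06. Without thinning, 65.6% and 88.0% of cells were called, and the class had median depths of 33655 and 48241 UMIs. These are tumour cells that came through a sort for CD45+ cells, 4.36% of named PBS and 8.43% of named 6C5 barcodes, and whether they represent the tumour was not tested. Free RNA could supply 1.80% of their UMIs of the 38 genes in PBS and 1.97% in 6C5, estimated from 6 macrophage genes such as Lyz2 and C1qa, which were chosen after the data had been seen. In the other classes the estimate came from melanoma genes, which cannot serve here.

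The genes at least 2-fold higher were mostly of G2 and M phase, 12 of 23 such members against 2 of 12 S members. Aurkb, the Aurora kinase of the passenger complex, led with 22.5 CPM in PBS and 73.5 CPM in 6C5, a ratio of 3.27 (2.74 to 3.93). Nusap1, a spindle protein, followed with 3.05 (2.43 to 3.87), and Ube2c was at 101 and 307 CPM, a ratio of 3.03 (2.79 to 3.30). Top2a was at 61.5 and 171 CPM, Cdk1 at 55.4 and 145 CPM and Mki67 at 82.4 and 179 CPM. Pclaf and Rrm2 were the 2 S members past 2-fold, with ratios of 2.21 and 2.07. The 6 helicase subunits stayed between log2 0.45 and 0.66.

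Not every mitotic gene was far apart in the melanoma cells. Ccnb2 had the lowest ratio of the 38, 1.16 (1.06 to 1.27), and Cdc20 was at 56.2 and 76.9 CPM, a ratio of 1.37. Of 45 other mitotic genes 13 were at least 2-fold higher, where 2.78% of all genes compared were, led by Prc1, which bundles the central spindle, at 24.6 and 107 CPM. Of 31 other replication genes 3 were at least 2-fold higher and 1 lower, the second close to the 4.1% of all genes that were lower. In the larger melanoma cluster alone, led by Pmel, Dct and Tyrp1, the shares were 30 of 118 (25.4%) and 148 of 344 (43.0%). The smaller one, led by Cryab and Hspb1, had a median of 693 UMIs in PBS and 1426 in 6C5. Only 14 of its 65 PBS cells and 41 of its 64 6C5 cells reached 1000 UMIs, of which 1 and 20 (48.8%) were cycling. Over all cells of this smaller cluster, free RNA could supply 37.9% of the UMIs of the 38 genes in PBS and 2.77% in 6C5.

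The makeup of cycling immune cells was different in each library. In PBS, 353 of the 573 (61.6%) were monocytes and macrophages, 19.5% DC, 13.3% T cells and 4.01% NK cells. In 6C5, monocytes and macrophages were 67 of 246 (27.2%), DC 22.0%, T cells 37.4% and NK cells 11.4%. By phase, G2/M members held 61.5% of the S and G2/M UMIs, counted in thinned cycling cells, in the monocytes and macrophages of PBS and 63.9% in those of 6C5. In T cells they held 51.6% and 56.6%, and in melanoma-like cells 54.8% (46.6 to 62.7) and 61.7% (58.8 to 64.6).

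The 38 genes also differed in how closely they marked the cells called cycling by the other members. For each, the share of its UMIs in cells called cycling by the other 37 was taken in monocytes and macrophages, DC, T and NK cells of each library, and the 8 values were averaged with equal weight. By the same mean, cells called cycling by all 38 genes, a slightly different call, held 27.3% of the UMIs of all genes. The call rests on a list of 23 G2/M and 12 S members, so a G2/M gene was scored mostly against its own phase. How much of the order comes from this makeup was not tested. Hmmr, a spindle assembly factor also known as a hyaluronan receptor, had 89.7% of its UMIs there (82.9% to 97.4% over the 8 values), Nusap1 88.9%, Ccna2 88.3% and Plk1 87.9%. These 4 means stood within the range of each other's values, so their order is not resolved. Top2a had 82.5% and Mki67 78.2%. At the other end were Mcm4 with 45.1%, Mcm6 with 45.2% and Pcna with 47.8%, and Mcm7 was the highest helicase subunit at 58.7%. The value depends on how many cells of the class are cycling: for Pcna it ran from 14.1% in the monocytes and macrophages of 6C5 to 74.3% in the T cells of PBS. Cenpa, with 56.4%, was the G2/M member with the lowest mean.

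**Figure D4:**
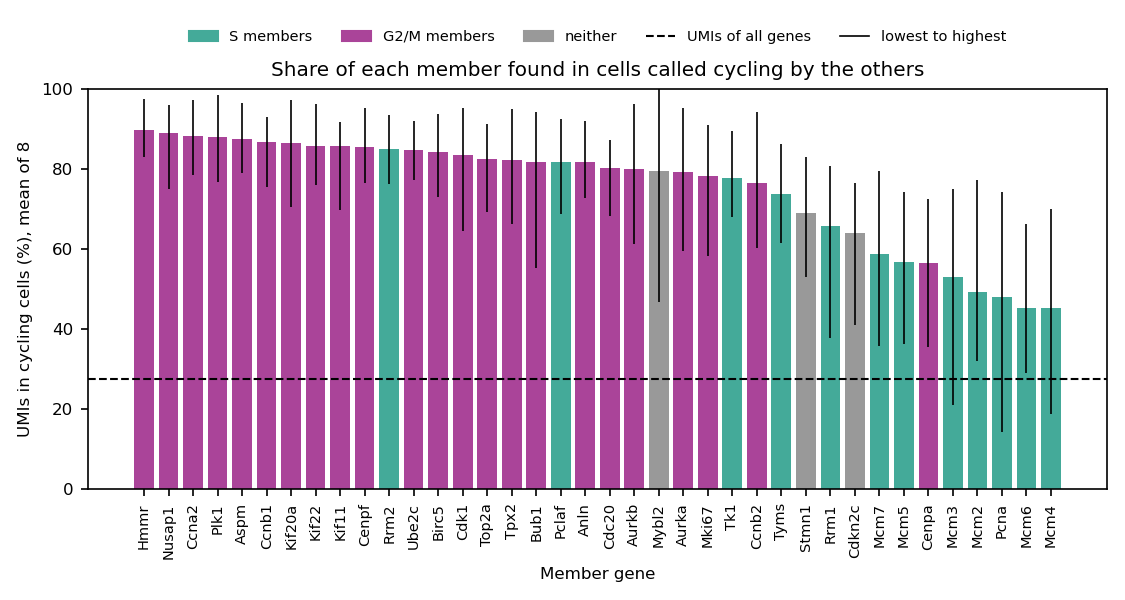
Percentage of each gene's UMIs that lay in cells called cycling by the other members (y axis), as the mean of 8 values (monocytes and macrophages, DC, T and NK cells in each library) with lines from the lowest to the highest, S members in green, G2/M members in purple and the rest in grey. Bars run from 89.7% for Hmmr to 45.1% for Mcm4, all above the 27.3% of all genes' UMIs marked by the dashed line.

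In monocytes and macrophages the cycling cells held more RNA. In PBS their median was 18740 UMIs against 11731 in the other cells of the class, and in 6C5 21450 against 10245. The 3 cycling plasmacytoid DC of PBS went the other way, with a median of 1381 against 8246 UMIs, as did the 3 cycling neutrophils of PBS, with 1559 against 2612. The lists outside the 38 genes differed in how they separated cycling from other cells. In the monocytes and macrophages of PBS the median ratio of CPM in cycling over other cells was 11.3 for other mitotic genes. It was 3.98 for other replication genes and 1.64 for G1 genes. The call itself used more G2/M than S members, and the part of this was not tested. Ccne1 and Ccne2, the cyclins E, were 7.13 and 5.64 times higher in the cycling cells of that class, Ccnd1 1.22 times, and Cdkn1a stood at 0.521.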

How the data were processed

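Single-cell RNA-seq had been run on 1 PBS and 1 6C5 library with a Chromium Single Cell v3 kit, per the labels' protocols. What the authors deposited are UMI counts, raw and without normalization, for 546897 PBS and 566018 6C5 barcodes with 78923567 and 85921419 UMIs in all. Per the file headers the counts come from Cell Ranger 7.1.0, while Cell Ranger 2.1.1 and mm10 stand in the submitters' processing notes. The sources used here do not say whether intronic reads were included. The 38 genes, the gene lists and the markers were chosen with earlier results of these data known.

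The minimum for a barcode was 500 UMIs and 300 genes, with mitochondrial UMIs up to 10%, which 13992 PBS and 13541 6C5 barcodes met. Scrublet's automatic threshold marked 0 in both and had not worked, so the highest scores were removed at 0.8% per 1000 cells (1566 and 1467). Both libraries were clustered together in scanpy 1.11.5 (2000 variable genes, 30 components, 15 neighbours, Leiden resolution 1, leidenalg 0.10.2), without 284 cell cycle, histone and correlated genes. A cluster was named from at least 3 of its markers among the 100 leading genes by fold (200 for subclusters). Clusters that correlated at 0.98 or more with free RNA (barcodes of 10 to 100 UMIs) were set aside. The correlated genes left out (r of 0.4 or more with the members' sum), and the rules that called subclusters mixed or unnamed by genes of another lineage or by low UMIs, were chosen after the data had been seen.

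Each cell was thinned to 1000 UMIs for the cycling call. Shares have exact Clopper-Pearson intervals, ratios of shares log-scale intervals, CPM exact Poisson intervals, and CPM ratios exact conditional binomial intervals, all at 95% and for counting error only. A gene was compared with at least 30 UMIs over both libraries, called at 2-fold, and a library at 0 was set to a floor of 3 UMIs. A count of 0 allows a share of up to 3 counts of the total. Every member was named, and from the wider lists the genes with the largest ratios. TMM factors came from edgeR 4.0.16. The interval and ratio code was tested on simulated data. Gene symbols come from the deposited table and promoters from RefSeq.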

Additional observations from a re-analysis of the deposited data

Results flagged for a closer look

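Barcodes outside the named classes also carried the 38 genes, and no comparison above uses them. Of unnamed PBS barcodes with at least 1000 UMIs, 30.2% met the cycling rule, and of the 6C5 barcodes that resembled free RNA 32.8% did. Over all unnamed PBS barcodes, the free-RNA estimate was 62.2% of the UMIs of the 38 genes. Over all 6C5 barcodes that resembled free RNA, this estimate was 93.9%. Whether barcodes of these 2 groups that met the rule were dividing cells was not tested. The barcodes removed for high doublet scores met the cycling rule in 32.4% (PBS) and 30.0% (6C5). Mixed subclusters, such as those with both T and macrophage genes, met it in 27.9% (PBS) and 12.7% (6C5).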

How the results depend on the processing

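With 1 library per group, nothing here separates treatment from library, and depth limits the small classes. No paired analysis was possible because each group has 1 library. The share ratio of monocytes and macrophages was below 1 in 14 of 15 alternatives. It was reversed, at 1.35 (0.501 to 3.65), with a free-RNA bound of 0.95, which set aside the cluster led by Cbr2 and Gas6 (1103 PBS and 133 6C5 cells) and left 5 cycling PBS cells. It was 0.250 at resolution 2, 0.461 with no thinning, 0.243 with at least 2 genes and 0.280 without the Negr1 and Ptprm subcluster. At resolution 2 a cluster led by Arg1, Spp1 and Areg (101 PBS and 657 6C5 cells) was unnamed and so left the class. A cluster led by the same genes (76 and 598 cells) also did so at a minimum of 1000 UMIs. The class's count of genes at least 2-fold lower, run under 9 alternatives, stayed between 34 and 37. In the macrophages alone the ratio was below 1 in all 15, from 0.234 (at most 5% mitochondrial) to 0.668 (0.158 to 2.82, at the 0.95 bound), with 0.262 when cell cycle genes were kept and 0.586 with no thinning. In melanoma-like cells the ratio stayed between 1.34 and 2.46 over 14 alternatives and the count of genes higher between 13 and 19 over 8.

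Small counts moved elsewhere. In neutrophils TMM scaling gave 1 gene higher and 1 lower, a minimum of 100 UMIs 0 lower, a minimum of 1 UMI 20 lower, and no doublet removal 1 lower, in place of 2. In B cells the 1 gene lower became 0 at a minimum of 100 UMIs, 12 at 1 UMI and 0 with cell cycle genes kept in the clustering. In NK cells the gene lower was lost (0) at 100 UMIs and with a pseudocount of 1 CPM, and the gene higher (0) with cell cycle genes kept. In T cells the gene higher was lost (0) at 100 UMIs and at resolution 2, where 1 was lower. Resolution 2 also gave 1 gene lower in DC. The share ratio was below 1 in 3 of 14 alternatives in cDC2 (0.505 to 1.63), 10 of 14 in cDC1 (0.822 to 1.21), 13 of 14 in mature DC (0.195 to 3.51) and 1 of 14 in regulatory T cells (0.920 to 1.36). In DC, T and CD8 T cells it stayed below 1 and in NK cells above 1 in all 14. No alternative was run for the subclusters (the Gas6, Lyve1 and Fcna macrophages and the NK forms among them), for the monocyte, CD4 T, gamma-delta T and other T subsets, or for plasmacytoid DC.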
